A study of Mus musculus with 9 samples.

Results

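Adipokines are signalling proteins that fat tissue releases into the blood or its own surroundings. The expression of 8 of them was followed during weight loss: *Lep* (leptin), *Adipoq* (adiponectin), *Retn* (resistin), *Rbp4* (retinol binding protein 4), *Cfd* (complement factor D, or adipsin), *Agt* (angiotensinogen), *Nampt* (nicotinamide phosphoribosyltransferase, whose secreted form is called visfatin) and *Apln* (apelin). They were taken from the deposited tables by gene symbol, and all 8 were found once among the 56748 genes listed. The 8 genes also passed the expression filter, together with 18510 genes in all.

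Wild-type male C57BL/6J mice, aged 8 weeks at the start, received a high-fat diet (HFD) for 8 weeks, and the mice sampled at that point formed the Pre group. The other groups had the same 8 weeks of HFD and were then switched to standard diet (SD) for 1 week (WL1) or 2 weeks (WL2). RNA of epididymal adipose tissue, the visceral fat depot beside the male epididymis, was sequenced in 3 libraries per phase. The purpose of the comparison was to follow gene expression while weight was being lost. All mice had been obese, so no mice kept on SD throughout stood among these groups, and no group remained on HFD for the extra weeks. The labels number the libraries of a phase but do not say whether each came from 1 animal, so the p-values measure the spread between these libraries.

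Leptin is made by fat cells in proportion to their fat stores and reports those stores to the hypothalamus through the leptin receptor. Adiponectin, by contrast, is abundant in lean animals and improves the response to insulin in liver and muscle, while resistin and retinol binding protein 4 have been linked to a poorer response to insulin in mice. Adipsin is the protease that starts the amplification loop of the alternative complement pathway by cutting complement factor B. Angiotensinogen is the precursor of angiotensin, and apelin acts on the apelin receptor of blood vessels and heart.

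The 8 genes did not move as a block. *Lep* fell in steps, to 0.562 times its Pre level at WL1 and 0.245 times at WL2. *Retn* and *Rbp4* fell at WL1, to 0.275 and 0.348 times Pre, and rose again from WL1 to WL2. *Cfd* and *Agt* were higher at WL2, at 3.04 and 2.01 times Pre, with no change past the threshold at WL1. *Adipoq*, *Nampt* and *Apln* passed the threshold in none of the 3 comparisons.

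The promoters of the 5 adipokines that changed are shown. Among these 5, 2 pairs moved together over the libraries, *Retn* with *Rbp4* and *Cfd* with *Agt*, while *Lep* followed a course of its own. The pairs were picked by their levels, and some genes outside them were also alike in course, as given below. Each line gives the 250 bases before the RefSeq start site on the strand of the gene (mouse build GRCm38.p6), 5′ to 3′. All 8 adipokines were matched in the RefSeq table, with 9 start sites, and of the 2 start sites of *Rbp4* the one whose downstream bases lie in a GENCODE M21 transcript is shown. Capitals mark matches, on either strand, to 3 motifs searched by letters, namely TATAAA (the TATA box), GGGCGG (the core of a GC box) and TTGCNNAA (a C/EBP-type site).
Lep (chr6:29059971-29060220, plus strand): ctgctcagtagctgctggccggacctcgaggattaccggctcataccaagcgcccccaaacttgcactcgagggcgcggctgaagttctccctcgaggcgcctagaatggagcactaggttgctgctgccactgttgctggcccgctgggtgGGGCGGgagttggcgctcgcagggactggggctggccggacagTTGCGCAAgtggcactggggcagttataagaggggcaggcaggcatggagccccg
Retn (chr8:3655520-3655769, plus strand): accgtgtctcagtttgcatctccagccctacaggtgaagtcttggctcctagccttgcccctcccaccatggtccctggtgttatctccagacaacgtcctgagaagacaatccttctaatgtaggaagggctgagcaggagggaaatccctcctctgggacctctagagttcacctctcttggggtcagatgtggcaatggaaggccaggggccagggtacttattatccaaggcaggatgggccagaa
Rbp4 (chr19:38124812-38125061, minus strand): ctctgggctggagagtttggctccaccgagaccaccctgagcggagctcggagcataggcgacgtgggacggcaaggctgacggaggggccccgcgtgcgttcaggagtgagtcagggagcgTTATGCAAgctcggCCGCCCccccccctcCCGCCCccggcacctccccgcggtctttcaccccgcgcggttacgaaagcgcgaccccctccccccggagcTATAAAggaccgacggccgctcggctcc
Cfd (chr10:79890603-79890852, plus strand): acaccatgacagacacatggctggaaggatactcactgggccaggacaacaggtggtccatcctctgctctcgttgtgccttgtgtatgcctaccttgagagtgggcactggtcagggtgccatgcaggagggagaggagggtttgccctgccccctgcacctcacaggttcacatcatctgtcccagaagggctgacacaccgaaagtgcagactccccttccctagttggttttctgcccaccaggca
Agt (chr8:124569707-124569956, minus strand): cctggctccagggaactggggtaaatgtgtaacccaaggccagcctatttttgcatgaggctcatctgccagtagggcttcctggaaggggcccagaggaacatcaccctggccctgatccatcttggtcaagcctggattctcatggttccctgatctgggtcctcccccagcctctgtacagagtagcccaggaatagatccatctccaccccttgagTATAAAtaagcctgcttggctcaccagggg

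In the *Lep* promoter, GGGCGG began 98 bases and TTGCGCAA, a match to TTGCNNAA, 55 bases before the start site. The *Rbp4* promoter held TATAAA from 28 bases before its start, GGGCGG on the opposite strand at 114 and 99 bases, and TTATGCAA, a match to TTGCNNAA on the opposite strand, at 128 bases. The *Agt* promoter held TATAAA from 30 bases before its start and no other of the 3 motifs. None of the 3 motifs was found by these letters in the windows of *Retn* and *Cfd*. Across 32851 RefSeq promoters of the same length, TATAAA was present in 12.4%, GGGCGG in 32.7% and TTGCNNAA in 9.56%. Neither pair that moved together shared one of these motifs, and the matches are a description of letters, not of binding. The share of G and C was 65.6% for *Lep*, 54.8% for *Retn*, 70.8% for *Rbp4*, 57.6% for *Cfd* and 55.6% for *Agt*, beside a median of 52.4% over all promoters.

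Each library held 16434450 to 22729072 counted reads. The tissue label was checked with 12 adipocyte marker genes (*Plin1*, *Cidec*, *Fabp4*, *Lpl* and others), which together made up 27105 to 45648 CPM (counts scaled to the library total after TMM adjustment) in every library, while all 4 epididymis genes searched stayed below the expression filter. Of 18510 genes tested, 7.29% passed an adjusted p of 0.05 at WL1 against Pre, 10% did so for WL2 over Pre and 3.68% for WL2 over WL1. The 8 adipokines took between 0.576% and 1.19% of all counted reads of a library. Genes of other cell types were read unevenly. The 5 T cell genes summed to 23.5 CPM in Pre replicate 2 and to 1.57 to 4.41 CPM in the others. The 5 B cell genes summed to 2684 CPM in Pre replicate 2, beside 1124 and 1251 in the other Pre libraries. Their sums were lower in all later libraries, at 168 to 290 CPM at WL1 and 154 to 244 at WL2. Sums of 5 mesothelium genes ran from 33.6 to 604 CPM over the libraries. The part of these cells in the adipokine values was not tested. In whole tissue, fewer cells of a type and less RNA per cell cannot be told apart.

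Levels were first ordered on a per-length scale, the FPKM of the authors (fragments scaled by gene length and library total), which allows levels of different genes to be set side by side. At Pre the order was *Adipoq* (1874 ± 413 FPKM, SD, n = 3), *Lep* (1519 ± 199), *Cfd* (1339 ± 503), *Retn* (456 ± 74.6), *Rbp4* (362 ± 50.7), *Agt* (79.4 ± 22.7), *Nampt* (16.3 ± 1.21) and *Apln* (13.7 ± 2.61). The libraries of neighbours overlapped for *Adipoq* and *Lep*, *Lep* and *Cfd*, *Retn* and *Rbp4*, and *Nampt* and *Apln*, so the order within those neighbours was not resolved. By WL2 the order had become *Cfd* (4084 ± 809 FPKM), *Adipoq* (2158 ± 219), *Lep* (372 ± 48.5), *Retn* (358 ± 52.2), *Rbp4* (220.3 ± 30.7), *Agt* (159 ± 23.5), *Nampt* (19.6 ± 1.60) and *Apln* (9.03 ± 1.66), and only *Lep* and *Retn* overlapped as neighbours. Among all genes of the table, *Cfd* went from rank 22 in mean FPKM at Pre and 24 at WL1 to rank 4 at WL2, and *Lep* from rank 18 over rank 32 to rank 75. *Adipoq* stood at ranks 16, 18 and 12 in the same phases. *Nampt* and *Apln* stood far below the other adipokines in every phase, with mean ranks between 2345 and 4796.

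**Figure D1:**
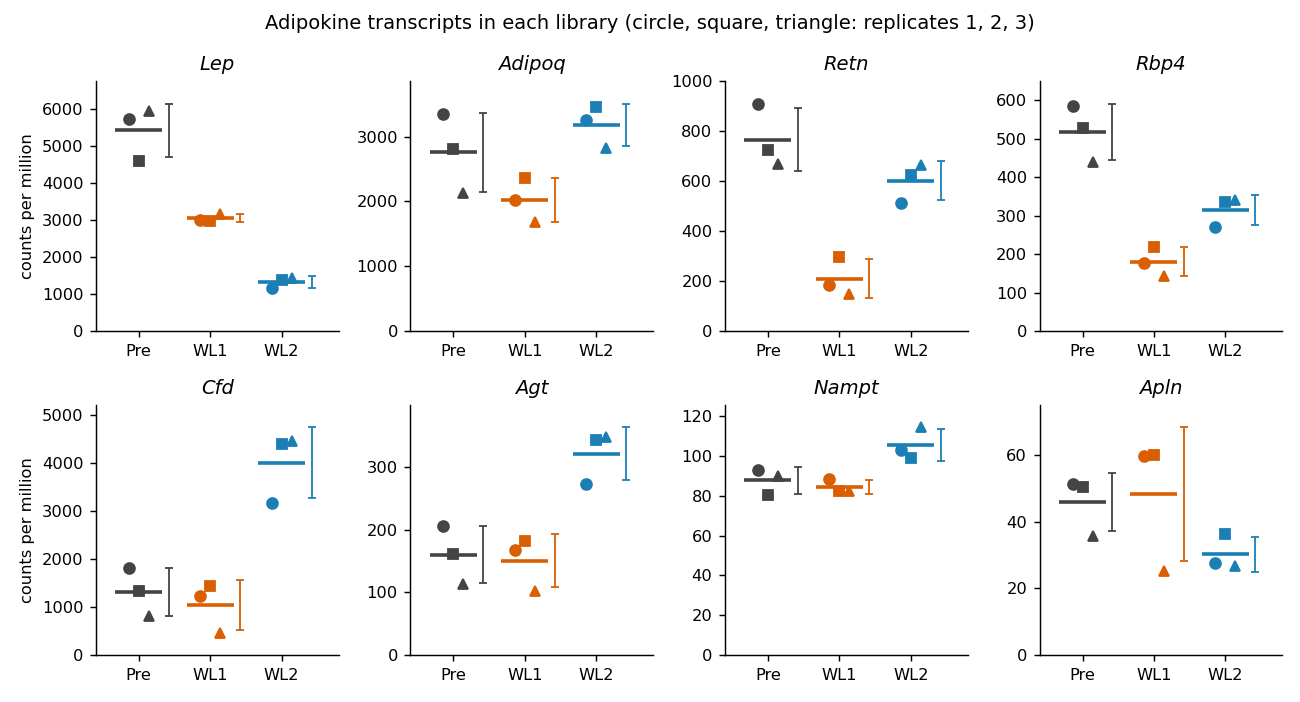
CPM of the 8 adipokines (vertical axes, from 0) in the 3 libraries of each phase (horizontal axes). Symbols are libraries, lines are means and bars are SD (n = 3). Lep steps down from Pre to WL2, Retn and Rbp4 are lowest at WL1, and Cfd and Agt are highest at WL2.

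*Lep* lies on chromosome 6 (29060219 to 29073876, plus strand; as in all such positions here, the coordinates are those of the authors' table, which names no build and whose positions differ from GRCm38). Its level was 5735, 4612 and 5943 CPM in the Pre libraries, 3019, 2966 and 3170 at WL1, and 1155, 1390.2 and 1439.6 at WL2. The 3 phases did not overlap, and the WL1 libraries lay especially close together, with a coefficient of variation of 3.46%. From Pre to WL1 the log2 fold change was -0.83 ± 0.13 (SE) with an adjusted p of 0.00661, and from Pre to WL2 it was -2.03 ± 0.14 with an adjusted p of 2.03e-05 (edgeR quasi-likelihood test, Benjamini-Hochberg adjustment, n = 3 per phase). The second week alone gave -1.20 ± 0.14 (edgeR, Benjamini-Hochberg adjusted p = 0.00368). The fall kept its side of the threshold in all 3 comparisons when any single library was left out. When libraries were scaled to the summed adipocyte markers instead of TMM factors, the WL1 change was -0.52 ± 0.19 (adjusted p = 0.104 by edgeR with Benjamini-Hochberg adjustment), while the 2 other comparisons stayed past the threshold.

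None of the 6 genes of the leptin receptor pathway tested (*Lepr*, *Leprot*, *Jak2*, *Stat3*, *Socs3*, *Ptpn1*) passed the threshold in any comparison by edgeR, DESeq2 or limma on log2(FPKM + 1). By edgeR 1 of them had an unadjusted p under 0.05, *Ptpn1* at WL2 against WL1 (log2 fold change -0.60 ± 0.21, adjusted p = 0.135). *Lepr* was scarce, with means of 4.34, 3.57 and 4.13 CPM at Pre, WL1 and WL2. Its 95% intervals against Pre were wide, from -0.91 to 0.34 at WL1 and from -0.70 to 0.55 at WL2. Over all genes tested, 7.29% passed at WL1 against Pre, 10% at WL2 against Pre and 3.68% at WL2 against WL1 by edgeR. These shares also stand beside the list counts below. *Ptpn1*, a phosphatase that dampens leptin and insulin signalling, had means of 87.3 ± 18.7, 101.6 ± 22.1 and 67.2 ± 15.5 CPM at Pre, WL1 and WL2 (SD, n = 3). *Stat3*, the transcription factor downstream of the receptor, had 182 ± 28.3, 153 ± 6.47 and 163 ± 22.5 CPM.

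*Adipoq* (chromosome 16, 22965286 to 22976778, plus strand) measured 3344, 2804 and 2123 CPM at Pre, 2021, 2358 and 1676 at WL1, and 3256, 3459 and 2822 at WL2. The WL1 libraries all lay below the WL2 libraries, whereas Pre overlapped with both. The log2 fold change was -0.45 ± 0.18 for WL1 over Pre (edgeR, Benjamini-Hochberg adjusted p = 0.165), 0.21 ± 0.18 for WL2 over Pre (adjusted p = 0.508) and 0.66 ± 0.18 for WL2 over WL1 (adjusted p = 0.0743). The last value, with a 95% interval from 0.25 to 1.06, passed the threshold in 3 other fits, namely without the expression filter, with DESeq2, and with WL1 and WL2 fitted alone (adjusted p = 0.0268, 0.00688 and 0.0427, respectively).

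Among 15 tested genes for adiponectin receptors, adiponectin assembly and the related C1q/TNF proteins, 2 fell at WL1, 3 fell at WL2, and from WL1 to WL2 1 rose and 1 fell. The receptors *Adipor1* and *Adipor2* passed in none of the 3. *C1qtnf12*, encoding the insulin-sensitizing secreted protein adipolin, stood at 69.7, 61.3 and 51.8 CPM at Pre, 28.0, 32.2 and 30.5 at WL1, and 39.5, 38.0 and 37.4 at WL2. It was lower at WL1 (log2 fold change -1.01 ± 0.12, adjusted p = 0.00146) and at WL2 (-0.67 ± 0.12, adjusted p = 0.00747; edgeR, Benjamini-Hochberg). *Gstk1*, also called DsbA-L and involved in assembling adiponectin multimers, fell at WL1 (-0.67 ± 0.12, adjusted p = 0.00996) and rose from WL1 to WL2 (0.70 ± 0.12, adjusted p = 0.0166; edgeR, Benjamini-Hochberg). *C1qtnf6* fell at WL2 against Pre (-1.28 ± 0.17, adjusted p = 0.00117) and against WL1 (-1.09 ± 0.17, adjusted p = 0.0122; edgeR, Benjamini-Hochberg), and *C1qtnf1* fell at WL2 against Pre (-0.50 ± 0.13, adjusted p = 0.0382).

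*Lep* and *Adipoq* were also compared within each library, as a ratio of FPKM that no scaling between libraries can change. The ratio was 0.706, 0.677 and 1.15 at Pre, 0.615, 0.518 and 0.779 at WL1, and 0.146, 0.165 and 0.210 at WL2. Pre and WL1 overlapped, while every WL2 library lay below every library of the other phases. The mean log2 difference was -0.38 at WL1 against Pre (exact two-sided permutation test, p = 0.4) and -2.25 at WL2 against Pre (exact permutation p = 0.1, the smallest that 3 libraries against 3 can give).

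**Figure D2:**
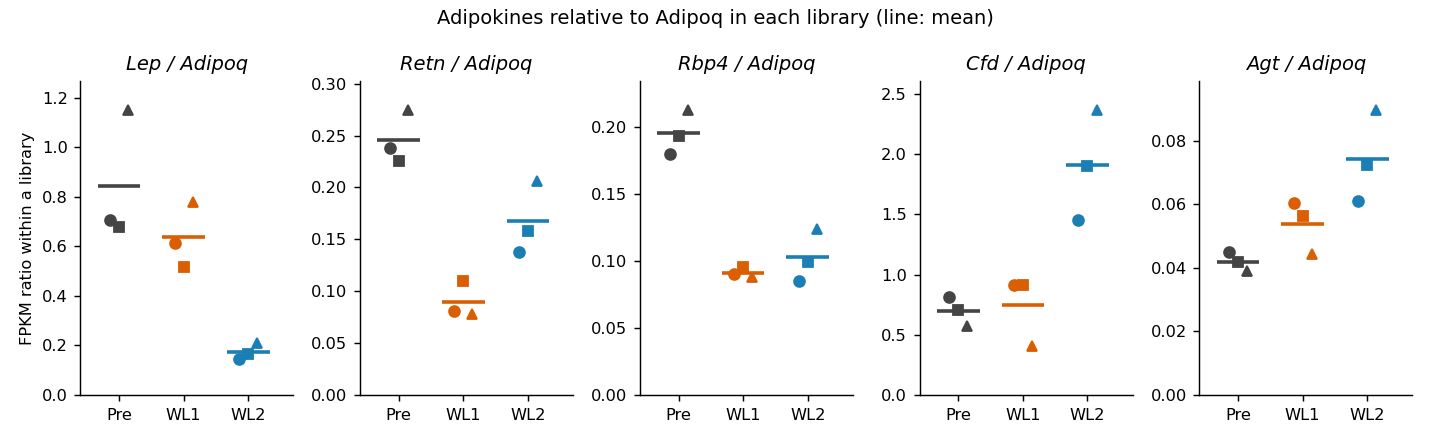
Ratio of the FPKM of 5 adipokines to that of Adipoq within each library (vertical axes, from 0) by phase. Symbols are replicates 1, 2 and 3 and lines are means. The Lep ratio is 0.146 to 0.210 at WL2 against 0.677 to 1.15 at Pre, and the Rbp4 ratios of WL1 and WL2 overlap.

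*Retn* (chromosome 8, 3705770 to 3710110, plus strand) and *Rbp4* (chromosome 19, 38105077 to 38113729, minus strand) shared a course with its lowest point at WL1. Resistin is a cysteine-rich hormone that in mice comes mainly from fat cells, and retinol binding protein 4 carries vitamin A in the blood and is made by liver and fat. *Retn* measured 910.0, 723 and 668 CPM at Pre, 187, 297 and 149 at WL1, and 515, 626 and 666 at WL2. The WL1 libraries lay far below all others, and the highest WL2 library was just under the lowest Pre library. *Rbp4* measured 586, 528 and 440.3 CPM at Pre, 177, 219 and 144 at WL1, and 270.2, 335 and 340.0 at WL2, without overlap between any of the phases.

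At WL1 against Pre, *Retn* changed by -1.86 ± 0.24 (adjusted p = 0.00197) and *Rbp4* by -1.52 ± 0.17 (adjusted p = 0.00115) on the log2 scale (edgeR, Benjamini-Hochberg adjustment). With *Lep*, 3 of 8 adipokines passed the threshold in this comparison, all lower, beside 7.29% of all genes tested (2.6% higher, 4.69% lower). The libraries of the phases did not overlap for 3 of 8 adipokines at WL1 against Pre, 6 for WL2 over Pre and 7 for WL2 over WL1, beside 28.7%, 30.9% and 30.3% of all genes tested. Both falls held in all 9 fits without a library and under all 11 other settings. The second week moved both back up, *Retn* by 1.51 ± 0.24 (adjusted p = 0.0122) and *Rbp4* by 0.81 ± 0.17 (adjusted p = 0.0343; edgeR, Benjamini-Hochberg). At WL2 *Retn* differed from Pre by -0.35 ± 0.23 (adjusted p = 0.369), and *Rbp4* was still lower, with -0.72 ± 0.17 (adjusted p = 0.0265; edgeR, Benjamini-Hochberg). The comparisons with Pre use the same Pre libraries, and those with WL1 the same WL1 libraries.

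The return of *Rbp4* was less firmly measured than its fall. Its rise from WL1 to WL2 missed the threshold without WL1 replicate 1 or 3 or WL2 replicate 2 or 3, with edgeR adjusted p-values of 0.0771 to 0.159 and log2 fold changes of 0.69 to 0.80. Its difference from Pre at WL2 missed it without Pre replicate 1 or 2 or any 1 of the WL2 libraries (edgeR adjusted p = 0.054 to 0.0791). With all libraries, the rise also missed it under adipocyte marker scaling (edgeR adjusted p = 0.132), with the replicate block (0.0545) and with limma on log2(FPKM + 0.1) (0.0726). The difference from Pre did so without scaling factors (edgeR adjusted p = 0.0588), under adipocyte marker scaling (0.138) and with limma on log2(FPKM + 0.1) (0.0607). The rise of *Retn* missed it without WL2 replicate 2 (adjusted p = 0.066 by edgeR) or 3 (0.0584). Relative to *Adipoq* in the same library, *Rbp4* stood at 0.180, 0.193 and 0.213 at Pre, 0.0901, 0.0955 and 0.0883 at WL1, and 0.0853, 0.0996 and 0.124 at WL2. On that ratio the fall from Pre was present in every library of WL1 and WL2, while WL1 and WL2 overlapped (mean log2 difference 0.16, exact two-sided permutation p = 0.5). *Adipoq* itself differed by 0.66 ± 0.18 on the log2 scale for WL2 over WL1 (edgeR adjusted p = 0.0743). Such a ratio holds the changes of both genes, so the overlap does not show that *Rbp4* stayed level. The ratio of *Retn* to *Adipoq* was 0.238, 0.226 and 0.275 at Pre, 0.0808, 0.110 and 0.0776 at WL1, and 0.138, 0.158 and 0.207 at WL2, with no overlap between phases.

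The share of reads from mitochondrial genes moved in the same way as this pair, at 3.15% to 3.57% at Pre, 1.86% to 2.03% at WL1 and 2.28% to 2.88% at WL2. Its part in the result was not tested. Hepatocyte genes were read unevenly, with summed levels over 9 genes of 10.97, 54.2 and 94.98 CPM at Pre, 88.6, 3.03 and 9.67 at WL1, and 3.72, 5.55 and 8.28 at WL2, and *Ttr*, *Fga* and *Fgb* at 0 in several libraries. Liver also makes *Rbp4* and *Agt*, and the part of hepatocyte RNA in their values was not tested.

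Of 4 tested genes related to resistin or its receptors, 1 fell in each comparison with Pre and 0 passed from WL1 to WL2 by edgeR (2 with an unadjusted p under 0.05, and 2 by DESeq2 and 0 by limma on log2(FPKM + 1) after adjustment). The gene that fell was *Retnla*, encoding resistin-like alpha, a product of alternatively activated macrophages and of adipose tissue. It measured 426, 621 and 558 CPM at Pre, 213, 243 and 206 at WL1, and 178, 270.6 and 398 at WL2. Its log2 fold change was -1.28 ± 0.25 at WL1 (adjusted p = 0.0166) and -0.92 ± 0.25 at WL2 (adjusted p = 0.044; edgeR, Benjamini-Hochberg). Of 11 tested genes of retinol binding and uptake, 2 rose and 0 fell at WL1, 1 rose and 0 fell at WL2, and 0 passed from WL1 to WL2 by edgeR (3 with an unadjusted p under 0.05, and 2 by DESeq2 and 0 by limma after adjustment). *Rbp7*, a retinol binding protein inside cells of fat tissue vessels, rose from 68.9, 30.2 and 40.3 CPM at Pre to 99.9, 134 and 77.3 at WL1 (1.16 ± 0.29, adjusted p = 0.0403) and 168, 119.7 and 131 at WL2 (1.58 ± 0.29, adjusted p = 0.00813; edgeR, Benjamini-Hochberg). *Stra6l*, a receptor for retinol binding protein 4, rose at WL1 from 3.70 ± 1.80 to 14.9 ± 5.77 CPM (SD, n = 3; log2 fold change 1.99 ± 0.51, edgeR adjusted p = 0.0427). It measured 9.88, 13.5 and 21.2 CPM at WL1 and 9.47, 3.12 and 3.13 at WL2. In both phases the library with the highest *Stra6l* also had the highest sum of macrophage markers. The part of macrophages in this rise was not tested.

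*Cfd* (chromosome 10, 79726687 to 79728489, plus strand) and *Agt* (chromosome 8, 125283273 to 125296445, minus strand) formed the other pair. *Cfd* measured 1807, 1326 and 815 CPM at Pre, 1230.4, 1439 and 458 at WL1, and 3161, 4393 and 4466 at WL2. *Agt* measured 206, 161 and 114 CPM at Pre, 167, 182 and 102 at WL1, and 272, 343 and 347 at WL2. For both genes every WL2 library stood above every Pre and WL1 library, Pre and WL1 overlapped, and Pre replicate 3 and WL1 replicate 3 were the lowest of their phases.

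At WL2 against Pre, *Cfd* changed by 1.61 ± 0.40 (adjusted p = 0.0299) and *Agt* by 1.00 ± 0.25 (adjusted p = 0.0294) on the log2 scale (edgeR, Benjamini-Hochberg). With *Lep* and *Rbp4*, 4 of 8 adipokines passed in this comparison, 2 higher and 2 lower, beside 10% of all genes (3.35% higher, 6.66% lower). At WL2 against WL1, *Cfd* changed by 1.94 ± 0.40 (adjusted p = 0.0311) and *Agt* by 1.09 ± 0.25 (adjusted p = 0.0408; edgeR, Benjamini-Hochberg), and 5 of 8 adipokines passed, 4 higher and 1 lower, beside 3.68% of all genes (1.31% higher, 2.37% lower). At WL1 against Pre the changes were -0.34 ± 0.39 for *Cfd* and -0.09 ± 0.24 for *Agt*, with 95% intervals from -1.19 to 0.52 and from -0.63 to 0.45. Leaving out WL1 replicate 3 changed these to 0.0092 for *Cfd* and 0.12 for *Agt*.

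Both rises lay near the threshold. At WL2 against Pre, *Cfd* and *Agt* missed it without Pre replicate 2 or 3 or WL2 replicate 2 or 3 (edgeR adjusted p = 0.0705 to 0.0973 for *Cfd* and 0.0653 to 0.104 for *Agt*). At WL2 against WL1, both missed it without any 1 of the WL1 libraries or without WL2 replicate 2 or 3 (edgeR adjusted p = 0.0573 to 0.132 for *Cfd* and 0.0721 to 0.171 for *Agt*). With all libraries, limma on log2(FPKM + 0.1) left *Cfd* and *Agt* short of the threshold at WL2 against Pre (adjusted p = 0.066 and 0.0633) and from WL1 to WL2 (0.0663 and 0.0845). The change of *Agt* from WL1 to WL2 also missed it with limma on log2(FPKM + 1) (adjusted p = 0.0576) and under adipocyte marker scaling (edgeR adjusted p = 0.0677). In all of these fits both genes were higher at WL2, with log2 fold changes of at least 1.35 for *Cfd* and 0.81 for *Agt*. At WL2 against Pre the number of adipokines past the threshold was 2 without Pre replicate 3 and 1 without Pre replicate 2, WL2 replicate 2 or WL2 replicate 3. From WL1 to WL2 it was 1 without WL2 replicate 2 or 3, 2 without WL1 replicate 1 or 3, and 3 without WL1 replicate 2, in place of 5. Over all genes tested, fewer passed in the same fits. At WL2 against Pre, 1853 passed with all libraries, and 1524 and 1548 without Pre replicate 2 or 3. Without WL2 replicate 2 or 3, 746 and 968 passed. From WL1 to WL2, 681 passed with all libraries, and 262, 176 and 127 without WL1 replicate 1, 2 or 3. Without WL2 replicate 2 or 3, 37 and 101 passed in that comparison.

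Over the 9 libraries, the log2 CPM of *Cfd* and *Agt* had a Pearson r of 0.990 and those of *Retn* and *Rbp4* one of 0.950. These are descriptions over libraries that share phases, depth and scaling. *Lep* had an r of -0.71 with *Cfd*, -0.75 with *Agt* and 0.063 with *Retn*. *Adipoq*, outside the pairs, had an r of 0.843 with *Cfd*, 0.809 with *Agt* and 0.793 with *Retn*. *Nampt* had 0.805 with *Cfd* and 0.798 with *Agt*. All other pairs of adipokines had an r of 0.652 or lower. *Cyb5a* was closer to *Retn* (0.990), and *mt-Cytb* to *Rbp4* (0.990), than that pair were to each other. Their likeness was thus not particular to the pair. The nearest other genes to *Cfd* (*Ttc8*, 0.978) and *Agt* (*Art3*, 0.987) were below 0.990.

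**Figure D3:**
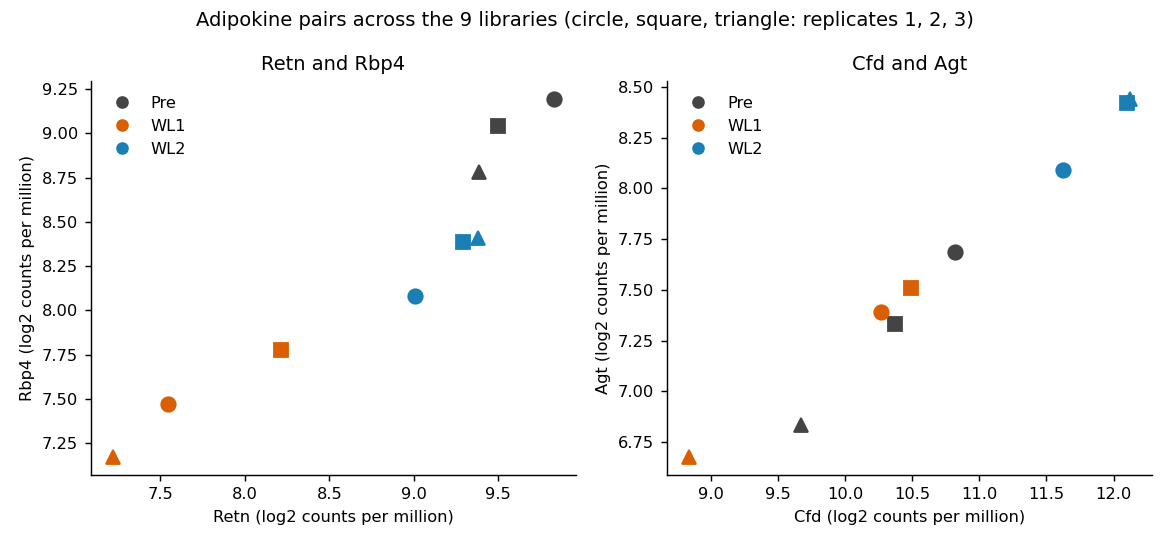
Log2 CPM of Retn against Rbp4 (left) and of Cfd against Agt (right) in the 9 libraries, coloured by phase. Each point is a library, with symbols for replicates 1, 2 and 3. On the left the WL1 libraries are at the low end and the Pre libraries at the high end, and on the right the WL2 libraries are at the high end while Pre and WL1 are intermixed.

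Among the 8 other genes of the alternative complement pathway tested, 2 rose and 1 fell at WL1, 0 rose and 2 fell at WL2, and 0 passed between WL1 and WL2 by edgeR (3 with an unadjusted p under 0.05, and 2 by DESeq2 and 0 by limma after adjustment). *Cfb*, the substrate that adipsin cuts, was scarce and fell from 7.18 ± 0.673 CPM at Pre to 4.28 ± 0.584 at WL1 (adjusted p = 0.0492) and 3.18 ± 0.51 at WL2 (log2 fold change -1.17 ± 0.20, adjusted p = 0.00544; edgeR, Benjamini-Hochberg). *C3*, the component at the centre of the pathway, passed in neither comparison with Pre and averaged 1522 CPM at Pre and 1532 at WL1. *C3ar1* and *C5ar2*, receptors found on macrophages, rose at WL1 by 1.50 ± 0.40 and 1.72 ± 0.44 on the log2 scale (edgeR adjusted p = 0.0492 and 0.0417). *Cfi*, an inhibitor of the pathway, fell at WL2 from a mean of 1.12 CPM to 0.13 CPM, a level close to 0 reads (edgeR adjusted p = 0.0389).

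In the angiotensin list, 5 of 11 genes stayed below the expression filter, and of 6 tested genes 0 rose and 1 fell at WL1 while 1 rose and 1 fell at WL2. *Agtr1a*, the main angiotensin receptor of the mouse, measured 14.3, 12.8 and 10.5 CPM at Pre, 25.2, 16.6 and 13.3 at WL1, and 23.3, 29.2 and 27.3 at WL2. All WL2 libraries were above all Pre libraries, and the gene rose at WL2 by 1.08 ± 0.22 on the log2 scale (edgeR, Benjamini-Hochberg adjusted p = 0.0137). *Enpep*, a peptidase that trims angiotensin II, fell at WL1 (-1.02 ± 0.19, adjusted p = 0.0121) and was lower at WL2 (-0.70 ± 0.19, adjusted p = 0.0401; edgeR, Benjamini-Hochberg).

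*Nampt* (chromosome 12, 32869544 to 32903348, plus strand), the enzyme that makes the NAD precursor in the salvage pathway, varied little. It measured 92.9, 80.2 and 90.0 CPM at Pre, 88.4, 82.7 and 82.2 at WL1, and 103, 99.0 and 114 at WL2, so that WL2 lay above both other phases without overlap. The log2 fold changes were -0.06 ± 0.10 at WL1 against Pre (edgeR, Benjamini-Hochberg adjusted p = 0.781), 0.27 ± 0.10 for WL2 over Pre (adjusted p = 0.131) and 0.32 ± 0.10 for WL2 over WL1 (adjusted p = 0.104). The 95% interval at WL2 against Pre ran from 0.04 to 0.49, so a change of over 1 on the log2 scale lay outside it. Without scaling factors the change at WL2 against Pre was 0.42 (edgeR adjusted p = 0.0301), and with DESeq2 that at WL2 against WL1 was 0.34 (adjusted p = 0.0335).

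Of 12 tested genes of NAD salvage and use, 0 rose and 1 fell at WL1, 2 rose and 1 fell at WL2, and 0 passed between WL1 and WL2 by edgeR (1 with an unadjusted p under 0.05, and 1 by DESeq2 and 0 by limma after adjustment). *Nnmt*, which methylates nicotinamide and so removes it from salvage, stood at 286, 224 and 242 CPM at Pre, 98.5, 128 and 108 at WL1, and 113, 110.0 and 91.7 at WL2. It was lower after both weeks, with log2 fold changes of -1.17 ± 0.14 (adjusted p = 0.00144) and -1.26 ± 0.14 (adjusted p = 0.000476; edgeR, Benjamini-Hochberg). *Nmnat3*, an enzyme of the last step to NAD, and *Sirt1*, an NAD-using deacetylase, rose at WL2 by 0.84 ± 0.18 and 0.46 ± 0.12 (edgeR adjusted p = 0.0162 and 0.0439). The rise of *Sirt1* missed the threshold in 13 of 20 other fits, and that of *Nmnat3* in 4.

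*Apln* (chromosome X, 47114023 to 47123730, minus strand) was the least abundant of the 8. It measured 51.5, 50.6 and 35.9 CPM at Pre, 59.8, 60.0 and 25.2 at WL1, and 27.6, 36.4 and 26.9 at WL2. WL1 replicate 3 was the lowest of all 9 libraries, and all phases overlapped. The log2 fold changes were 0.07 ± 0.29 at WL1 against Pre (edgeR, Benjamini-Hochberg adjusted p = 0.905), -0.60 ± 0.29 for WL2 over Pre (adjusted p = 0.227) and -0.67 ± 0.29 for WL2 over WL1 (adjusted p = 0.217), with intervals from -1.25 to 0.05 and from -1.33 to -0.02 for the last 2. The apelin receptor gene *Aplnr* measured 143, 91.0 and 95.02 CPM at Pre, 130.5, 90.3 and 46.3 at WL1, and 41.5, 47.0 and 27.4 at WL2, and fell at WL2 (log2 fold change -1.50 ± 0.34; edgeR, Benjamini-Hochberg adjusted p = 0.0216). *Mme*, encoding neprilysin, a peptidase that degrades apelin, fell at WL1 (-0.88 ± 0.15, adjusted p = 0.00739) and WL2 (-1.28 ± 0.15, adjusted p = 0.000529; edgeR, Benjamini-Hochberg).

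**Figure D4:**
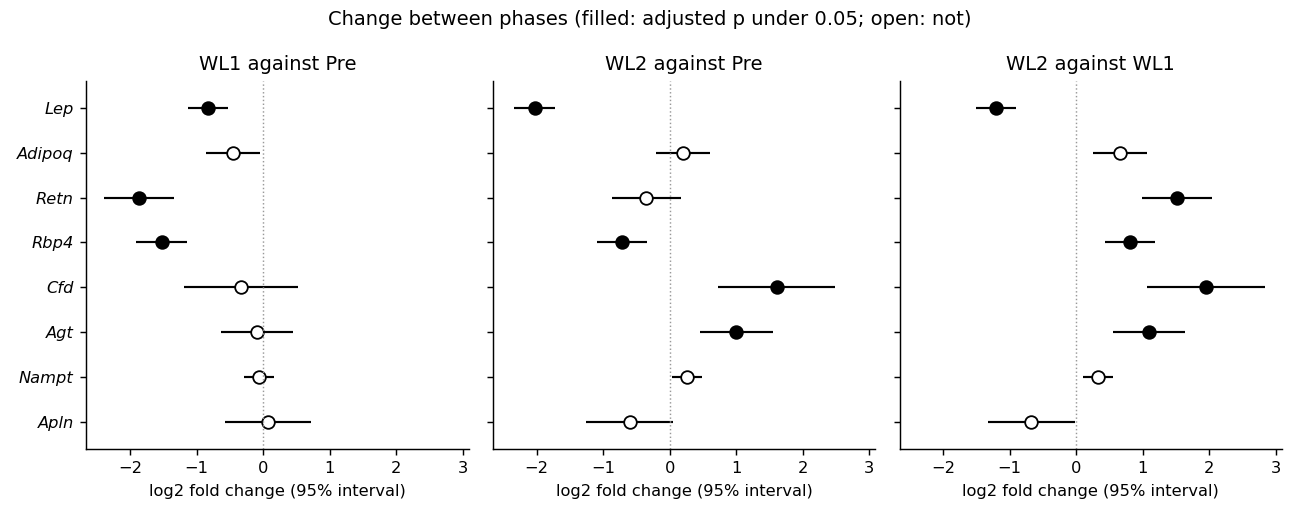
Log2 fold changes (horizontal axes) of the 8 adipokines in the 3 comparisons, with 95% intervals from the edgeR fit. Filled circles passed an adjusted p of 0.05. At WL1 the 3 filled circles lie below 0, and at WL2 against WL1 Lep is the only filled circle below 0.

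Of 19 tested genes for other secreted products of fat tissue and their receptors, 1 rose and 3 fell at WL1, 0 rose and 1 fell at WL2, and 0 rose and 2 fell from WL1 to WL2. *Tnf*, the inflammatory cytokine, was 1.42, 1.71 and 1.62 CPM at Pre, 3.09, 3.17 and 3.88 at WL1, and 1.26, 1.30 and 1.51 at WL2. It rose at WL1 (1.09 ± 0.25, adjusted p = 0.0297) and fell again (-1.31 ± 0.26, adjusted p = 0.026; edgeR, Benjamini-Hochberg). *Nrg4*, encoding neuregulin 4, a fat-derived factor acting on liver, fell at WL1 (log2 fold change -1.12 ± 0.24, edgeR adjusted p = 0.0214), and *Ccl2*, a chemokine for monocytes, was lower at WL2 (-1.19 ± 0.30, edgeR adjusted p = 0.0305). *Sfrp5*, an inhibitor of Wnt signalling secreted by fat cells, fell from WL1 to WL2 (-0.81 ± 0.19, edgeR adjusted p = 0.0436). Over all 83 tested genes of the lists, 15 (18.1%) passed at WL1 against Pre, 5 higher and 10 lower. At WL2 against Pre 15 (18.1%) passed, 4 higher and 11 lower, and at WL2 against WL1 4 (4.82%), 1 higher and 3 lower. The shares over all genes tested were 7.29%, 10% and 3.68%, so the last list share was near that of all genes. The WL2 against WL1 count was 0 without WL2 replicate 2 or 3 and 13 without WL2 replicate 1. In those fits 37, 101 and 1347 of all genes passed. The WL1 against Pre count was 6 without WL1 replicate 1 or 3, where 598 and 507 of all genes passed. Without WL2 replicate 2, 6 list genes and 746 of all genes passed at WL2 against Pre.

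Single libraries stood apart among these values. WL1 replicate 3 held the lowest level of all 9 libraries for 6 of the 8 adipokines, *Adipoq*, *Retn*, *Cfd*, *Rbp4*, *Apln* and *Agt*. It also had the lowest sum of the 12 adipocyte markers, 27105 CPM beside 29617 to 45648 in the others, and the highest sum of 10 macrophage markers, 3213 CPM beside 682 to 1812. WL2 replicate 1 was the lowest WL2 library for *Lep*, *Retn*, *Rbp4*, *Cfd* and *Agt*, though not for *Adipoq*, *Nampt* or *Apln*. Its macrophage sum was 1604 CPM beside 829 and 978 in the other WL2 libraries. Without it, 1347 of all genes passed from WL1 to WL2, in place of 681. By phase the adipocyte sums overlapped, at 29617 to 45648 CPM at Pre, 27105 to 32796 at WL1 and 33021 to 36150 at WL2, and the median change of the 12 markers was -0.42 at WL1 and -0.07 at WL2 on the log2 scale, with 2 lower at WL1 and 2 higher and 3 lower at WL2. The macrophage sums were 682 to 1256 CPM at Pre, 1754 to 3213 at WL1 and 829 to 1604 at WL2, with a median change of 1.30 at WL1 and 2 of 10 markers higher. The part of these cell types in the adipokine values was not tested. Without WL1 replicate 3, *Lep*, *Retn* and *Rbp4* still passed the threshold at WL1 against Pre.

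**Figure D5:**
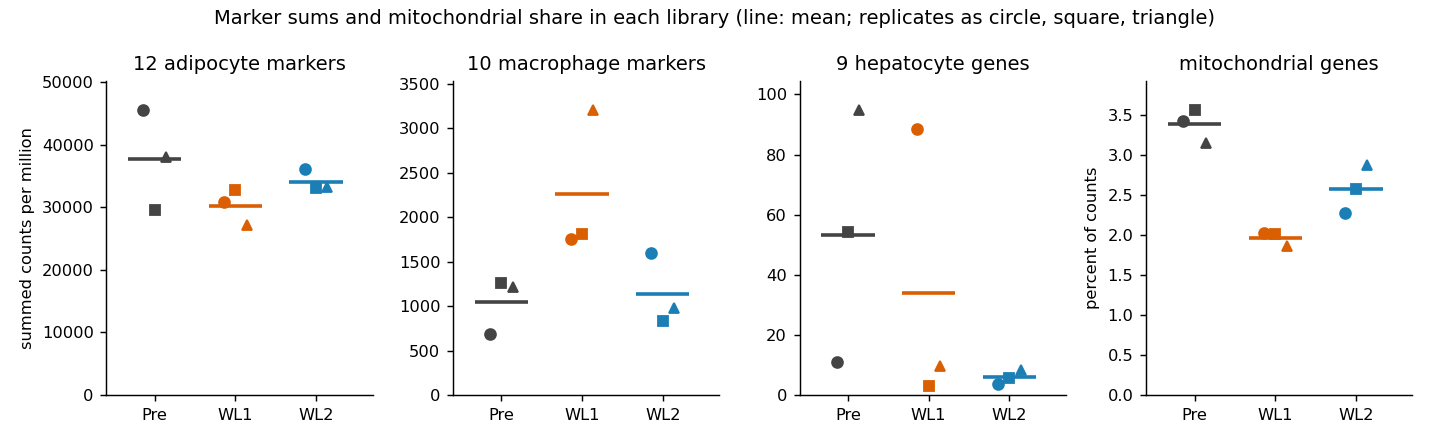
Summed CPM of adipocyte, macrophage and hepatocyte gene lists, and the percent of counts from mitochondrial genes, in each library by phase (vertical axes, from 0). Symbols are replicates 1, 2 and 3 and lines are means. WL1 replicate 3 (triangle) has the lowest adipocyte sum, 27105, and the highest macrophage sum, 3213.

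For each adipokine, the protein-coding genes with the most similar course over the 9 libraries were sought among 9698 genes with a mean of at least 10 CPM. Nearest to *Lep* were *Orm1*, an acute-phase plasma protein (Pearson r = 0.989), and *Col4a1*, a basement membrane collagen (0.989), whose means went from 318 over 139 to 56.1 CPM and from 2872 over 2031 to 1045 CPM at Pre, WL1 and WL2. Nearest to *Rbp4* were *mt-Cytb*, a subunit of the mitochondrial respiratory chain (0.990), and *Atp6v0e2* (0.984), and nearest to *Retn* were *Cyb5a* (0.990) and *Cdo1*, a cysteine dioxygenase (0.979). *Cfd* had *Ttc8* (0.978) and *Phyh*, a peroxisomal hydroxylase (0.975), and *Agt* had *Art3* (0.987) and *Nnat* (0.969). *Adipoq* had *Uck1* (0.987) and *Rras* (0.980), *Nampt* had *Adgrg1* (0.978) and *Ppp2r3a* (0.951), and *Apln* had *Fscn1* (0.967) and *Kif26a* (0.965). These values rank genes by likeness alone, over 9 libraries of 3 phases.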

How the data were processed

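Per gene, the authors deposited counts (whole numbers, not normalized) and FPKM (scaled by gene length and library total) for the same 9 libraries. The submitters' processing notes name CASAVA, HISAT, HISAT2, TopHat2 and the builds GRCm38 and mm10, without roles or versions. Coordinates in the tables are not those of GRCm38 and are given without a build. Dividing counts by FPKM and length gave a library total 0.995 to 1.01 times the summed counts at Pre, 1.07 to 1.11 at WL1 and 1.11 to 1.12 at WL2. FPKM served for levels between genes and for ratios within a library.

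The counts were tested with edgeR 4.0.16 in R 4.3.3, by glmQLFit and glmQLFTest in a single model of all 9 libraries with TMM scaling and no covariates. Tested genes reached 0.5 CPM in 1 library or more, which left 18510, and Benjamini-Hochberg adjustment ran over all of them with a threshold of 0.05. Log2 CPM used a prior count of 4. SE were derived from the log2 fold change and its F statistic. Ratios were compared by exact permutation tests. Replicates were not duplicates of each other, with chi-square values of 9.13 to 48.9 per degree of freedom between pairs. The fits were also run on simulated counts with planted changes, and the outcome of that run is not reported here.

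The adipokines, gene lists and tests were chosen with earlier results of these data known, and the lists came from general knowledge. Named genes were the 8 adipokines, up to 4 genes past the threshold per list (those of smallest p, or the 2 smallest where none passed), and the 2 genes most similar to each adipokine. *Lepr*, *Leprot*, *Jak2*, *Socs3*, *Adipor1*, *Adipor2*, *C3* and the single marker genes were named beyond this rule. No gene in the table overlapped an adipokine. Alternatives were other filters, DESeq2 1.42.0, other scaling factors, scaling to adipocyte markers, a replicate block, limma 3.58.1 on log2(FPKM + 1) or with 0.1 in place of 1, separate fits of each pair of phases, and leaving out each library. The counts of the adipokines ranged from 448 to 128770 per library, so counting error was small beside the spread between libraries.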

Additional observations from a re-analysis of the deposited data

How the results depend on the processing

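*Lep* in all 3 comparisons and *Retn* and *Rbp4* at WL1 kept direction and side of the threshold in every fit run, except *Lep* at WL1 under adipocyte marker scaling. At WL1 against Pre, 2 to 3 adipokines passed. At WL2 against Pre 1 passed with limma on log2(FPKM + 0.1) in place of 4, and 1 to 4 without 1 library. From WL1 to WL2, 3 passed with adipocyte marker scaling and 2 with limma on log2(FPKM + 0.1), in place of 5. Without 1 library, 1 to 5 passed in that comparison, and the cause was not tested. Over all genes, fits without 1 library called 507 to 1490 at WL1 against Pre, beside 1350 with all libraries. Such fits called 746 to 1680 at WL2 against Pre, beside 1853, and 37 to 1347 from WL1 to WL2, beside 681. Of the pathway genes, 8 passed at WL1 with limma on log2(FPKM + 0.1) and 6 to 17 without 1 library, in place of 15. At WL2 against Pre 8 passed with adipocyte marker scaling, 9 with limma on log2(FPKM + 0.1) and 9 with the phases alone, and 6 to 14 without 1 library, in place of 15. From WL1 to WL2 19 passed with no filter, 17 with DESeq2 and 7 with the phases alone, and 0 to 13 without 1 library, in place of 4. Calls of single list genes were lost in part of the 20 other fits. At WL2 against Pre the number was 13 for *Sirt1*, *C1qtnf1* and *Retnla*, 12 for *Enpep*, 8 for *Cfi*, 6 for *Ccl2* and 5 for *Aplnr*. At WL1 against Pre it was 13 for *Cfb*, 11 for *C3ar1*, 10 for *Rbp7*, 9 for *Stra6l* and 8 for *C5ar2* and *Tnf*. From WL1 to WL2 it was 8 for *Sfrp5*, 6 for *Tnf* and 5 for *Gstk1*. Other calls of named list genes were lost in at most 4. No fit lost *Nnmt* in either comparison with Pre, or *C1qtnf6*, *Mme*, *Cfb* and *Rbp7* at WL2 against Pre.

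Changes below the threshold at WL1 against Pre turned sign: *Nampt* to 0.045 without scaling factors and 0.24 with adipocyte marker scaling, *Agt* to 0.017 and 0.19, *Apln* to -0.026 and -0.035 with limma (pseudocounts 1 and 0.1). Without 1 library, *Cfd* ranged from -0.64 to 0.0092, *Apln* from -0.11 to 0.37 and *Agt* from -0.28 to 0.13.

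Without scaling factors the median log2 change of all genes moved to 0.12 at WL1 and 0.16 at WL2, and with adipocyte marker scaling to 0.31, 0.11 and, from WL1 to WL2, -0.18. The share of higher calls, 35.7%, 33.5% and 35.5% in the 3 comparisons, became 61.0%, 64.2% and 44.4% without scaling factors, 83.2%, 51.2% and 11.9% with adipocyte marker scaling, and 30.6%, 38.9% and 48.3% with upper quartile factors. Same-numbered libraries did not deviate together (correlations of -0.28 to 0.11, beside -0.20 to 0.24 for other pairs). No pairing by number was seen, but 3 libraries per phase are too few to exclude one. With the replicate block 3, 4 and 4 adipokines passed, and the rise of *Rbp4* from WL1 to WL2 had an edgeR adjusted p of 0.0545.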
